A study of Mus musculus with 10 samples.

Results

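The 40 genes described here encode the machinery of mitosis. Among them are the cyclins and kinases that start it, the spindle checkpoint, mitotic ubiquitin ligase factors, and the centromere and kinetochore. The others are the motors and microtubule-bundling proteins of the spindle and the cytokinesis factors, together with Mki67, Top2a and Depdc1a. The 40 genes were taken as a named list, by gene symbol and with no threshold on their values. Of the 40 genes, 39 were measured, out of 22180 genes tested. Ccnb1 had no probe set with that symbol alone and was not analysed here.

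Expression was measured on 10 Affymetrix Mouse Gene 2.0 ST arrays of SLAM+ hematopoietic stem cells (HSCs) sorted from lineage-depleted bone marrow of C57BL/6J mice aged 18 months, 5 arrays labeled Ahr knockout (AHR-KO) and 5 labeled wild-type (WT). The comparison asks which genes HSCs express differently when the aryl hydrocarbon receptor (AHR) is missing. The knockout was global, so that bone marrow stromal cells of AHR-KO mice lacked AHR as the HSCs did, and the labels do not name the deleted allele. The study's methods give each mouse its own array, but whether that text covers these arrays is not said. If it does, p-values measure the spread between mice and array preparations together. RNA was amplified from few sorted cells before hybridization.

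Values are log2(signal + 16), a scale that understates the change of dim genes. Ahr itself ranged from 5.17 to 6.52 in the AHR-KO arrays and from 4.70 to 6.78 in the WT arrays, with a log2 fold change of 0.23 (SE 0.34), so this probe set did not check the labels, and groups are named as labeled. Slamf1, which encodes the CD150 antigen of the SLAM sort, ranged from 6.05 to 7.86 over the 10 arrays. Cd48, whose product the sort selects against, ranged from 6.45 to 9.44. Cd34, whose product the paper's own HSC sort also selects against, ranged from 10.09 to 11.06. The mean levels of Slamf1, Cd48 and Cd34 lay at percentiles 71.3, 90.5 and 98.9 of all genes. The first principal component of genes outside the mitosis and replication lists held 30.7% of the variance. On it, 4 arrays (AHR-KO replicates 1 and 2, WT replicates 1 and 5) stood apart from the other 6 (3 AHR-KO and 3 WT). These 2 sets of arrays are not named by the labels and were drawn from the same data. Limma p-values that use the sets take this split as known and serve as description only. Values within each set are given for the genes whose calls differ between the fits. Differences between the sets were not tested. No gene of the 22180 passed an adjusted p under 0.05 in limma with Benjamini-Hochberg adjustment (0% called, smallest adjusted p 0.998), while 830 genes had an unadjusted p under 0.05. The methods' t-test also called 0 genes after adjustment.

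Most genes of this machinery are silent in resting cells and are transcribed together late in the cell cycle, shortly before division. Repressor and activator complexes that share the MuvB core, with B-MYB and FOXM1 on the activating side, act on them through a short promoter element called the cell cycle genes homology region (CHR), and many of the same promoters carry CCAAT boxes bound by NF-Y. Most HSCs of adult bone marrow are quiescent, so that transcripts of these genes in a sorted HSC population come largely from the minority of cells that cycle. In bulk arrays, a change in the number of dividing cells and a change in RNA per cell cannot be told apart.

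Promoter windows from RefSeq (GRCm38.p6; 250 bases before to 50 after the annotated start) were found for 36 of the 40 genes, in 38 windows because Ect2 and Prc1 have more than 1. A CHR, searched as TTTGAA or TTCGAA on either strand (the latter reads the same on both), lay in 31 of the 38 windows (81.6%), against 19.2% of all 32851 windows and 18.8% of 32 windows of DNA replication genes. A CCAAT on either strand lay in 30 windows (78.9%), against 37.4% of all windows and 56.2% of those of the replication genes. Both motifs lay in 27 windows (71.1%), against 7.52% of all and 15.6% of the replication windows. The windows of Nuf2, Nek2, Nusap1, Mad2l1, Birc5, Cenpe and Ccnb1 held no CHR of these letters. These matches are a description of the sequences and no test of binding. The 100 bases before the start are printed for windows chosen for a CCAAT in those bases and a whole CHR in the last 30. Nuf2, which held neither, was added, so the motifs shown follow from this choice. Depdc1a and Nuf2 were the 2 genes with the smallest unadjusted p. Kif11, Top2a and Prc1 followed the other mitosis genes most closely once group means were subtracted. Cdk1 is the central mitotic kinase. Cdc20 and Ube2c, partners of the mitotic ubiquitin ligase, followed the others less. Capitals of 6 letters mark a CHR and capitals of 5 letters a CCAAT, either of which may lie on the opposite strand and then reads as its reverse complement. Each sequence reads 5′ to 3′ on the strand of its gene, and positions are chr3:159495333-159495432 (+) for Depdc1a, chr1:169531465-169531564 (-) for Nuf2, chr19:37376282-37376381 (+) for Kif11, chr11:99024190-99024289 (-) for Top2a, chr7:80294376-80294475 (+) for Prc1, chr10:69352913-69353012 (-) for Cdk1, chr4:118437344-118437443 (-) for Cdc20 and chr2:164769829-164769928 (+) for Ube2c.
Depdc1a: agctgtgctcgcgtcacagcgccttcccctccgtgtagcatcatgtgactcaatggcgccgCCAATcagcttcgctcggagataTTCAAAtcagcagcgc
Nuf2: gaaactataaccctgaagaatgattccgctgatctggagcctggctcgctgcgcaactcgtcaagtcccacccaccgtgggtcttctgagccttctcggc
Kif11: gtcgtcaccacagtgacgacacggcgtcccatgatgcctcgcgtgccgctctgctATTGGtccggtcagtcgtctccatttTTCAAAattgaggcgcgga
Top2a: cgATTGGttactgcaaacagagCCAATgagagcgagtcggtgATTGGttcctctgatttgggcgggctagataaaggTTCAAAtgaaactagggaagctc
Prc1: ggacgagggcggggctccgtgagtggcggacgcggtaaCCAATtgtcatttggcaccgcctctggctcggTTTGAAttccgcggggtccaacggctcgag
Cdk1: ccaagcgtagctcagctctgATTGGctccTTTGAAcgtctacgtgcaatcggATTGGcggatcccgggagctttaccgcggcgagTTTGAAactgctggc
Cdc20: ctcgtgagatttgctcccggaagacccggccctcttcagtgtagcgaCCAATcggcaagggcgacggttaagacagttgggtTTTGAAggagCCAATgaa
Ube2c: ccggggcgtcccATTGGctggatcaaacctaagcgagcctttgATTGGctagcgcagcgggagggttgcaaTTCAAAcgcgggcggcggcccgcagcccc
In Depdc1a, Kif11 and Cdc20 the first base of the CHR lay 16, 19 and 18 bases before the start, with a CCAAT beginning 39, 45 and 53 bases before it and, in Cdc20, another beginning 8 bases before it. The stretch of Nuf2 held neither motif, and that of Cdk1 held 2 of each.

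Across the 39 measured genes, the log2 fold change (AHR-KO minus WT) was above 0 in 29 (74.4%), against 51.1% of all genes, and its median was 0.19, against 0.004 for all genes. The values ranged from -0.13 to 0.66. The study's methods name a change of at least 1.5-fold, a p under 0.05 and an unspecified adjustment for multiple comparisons. Genes were called here at a 1.5-fold change with an unadjusted p under 0.05 (the 1.5-fold threshold), at which 1 of the 39 was higher in AHR-KO HSCs (Depdc1a) and 0 were lower, where 0.18% of all genes were called higher and 0.343% lower. At an unadjusted limma p under 0.05 without the fold threshold, 3 of the 39 were higher (Depdc1a, Nuf2 and Aspm), against 1.81% of all genes. With the array set, a split drawn from these same data, as a block, 6 of the 39 were (Cenpe, Cenpf and Mki67 in addition), against 2.62% of all genes. Within the 6 arrays of the larger set 10 of the 39 were, against 4.56% of all genes, and within the other 4 arrays 1 was, against 1.98%. The AHR-KO and WT arrays did not overlap in 1 of the 39 (Depdc1a, higher), against 0.347% of all genes. None of the 39 passed the adjusted threshold. The 95% intervals were wide, with half-widths from 0.25 to 0.71 on the log2 scale, and for 17 genes the upper bound lay above a 1.5-fold rise, so that a rise of that size lay within the interval. All 39 had mean signals over the 10 arrays above the 99th percentile (73.4) of 1105 olfactory receptor genes, taken as a measure of background. For Depdc1a the mean signal was 104 in AHR-KO and 60.1 in WT arrays. The WT mean thus lay below that percentile, though above the 95th (31.6).

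**Figure D1:**
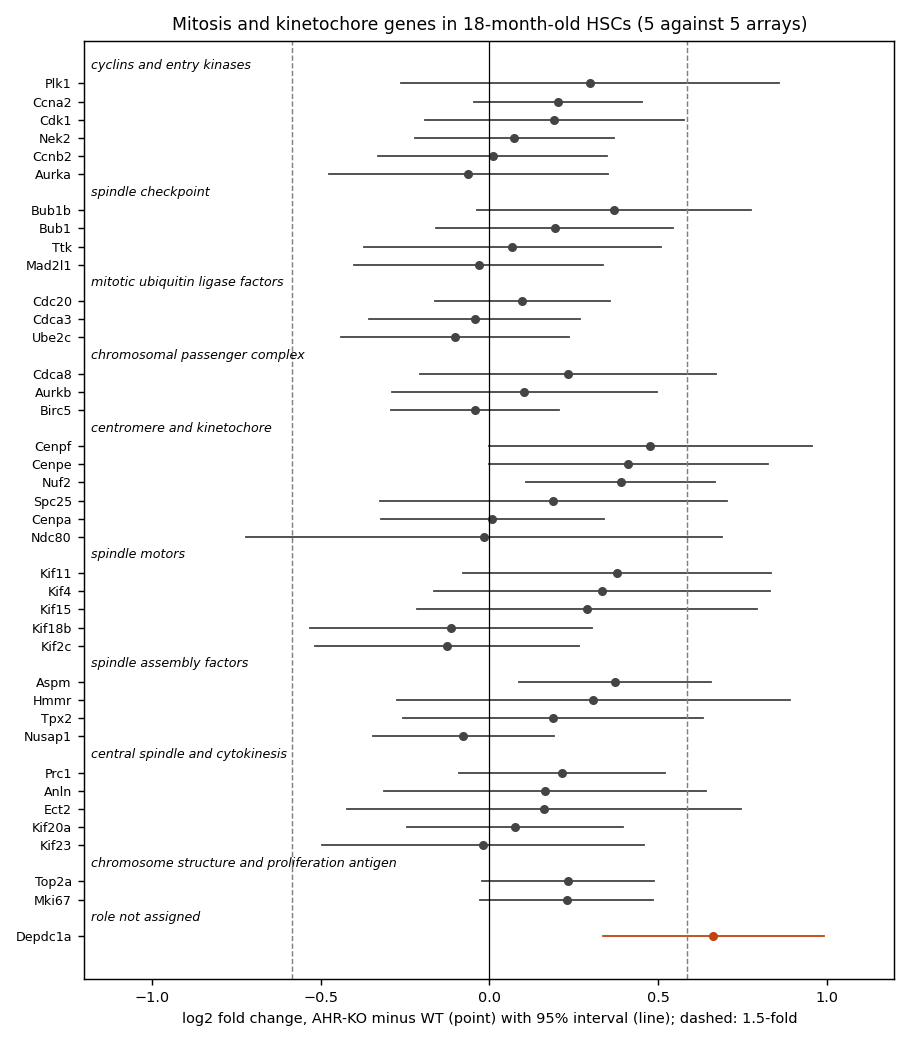
Log2 fold change of the 39 measured mitosis genes (x axis, AHR-KO minus WT, points) with the 95% interval of the limma fit (lines), grouped by role on the y axis; dashed lines mark a 1.5-fold change. Depdc1a (0.66, orange) is the 1 gene past the 1.5-fold threshold, and 29 of the 39 points lie to the right of 0.

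Depdc1a, whose human counterpart is overexpressed in several cancers and is needed for normal mitotic progression there, showed the largest difference of the list. Its log2 levels were 6.98, 7.06, 6.97, 6.55 and 6.91 in AHR-KO replicates 1 to 5 and 5.80, 6.42, 6.30, 6.47 and 6.17 in WT replicates 1 to 5. All 5 AHR-KO arrays lay above the highest WT array, by little in AHR-KO replicate 4, and WT replicate 1 lay lowest. The log2 fold change was 0.66 (SE 0.15), a 1.58-fold higher level (95% interval 1.26 to 1.99), with an unadjusted limma p of 0.000867, an adjusted p of 0.998 and a two-sided exact permutation p of 0.00794, the smallest that 252 divisions of the arrays allow. Without WT replicate 1 the log2 fold change was 0.56, below the 1.5-fold threshold. Within the 6 arrays of the larger set it was 0.42 (unadjusted limma p 0.0209), also below the threshold, and within the other 4 it was 1.03 (p 0.00595).

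**Figure D2:**
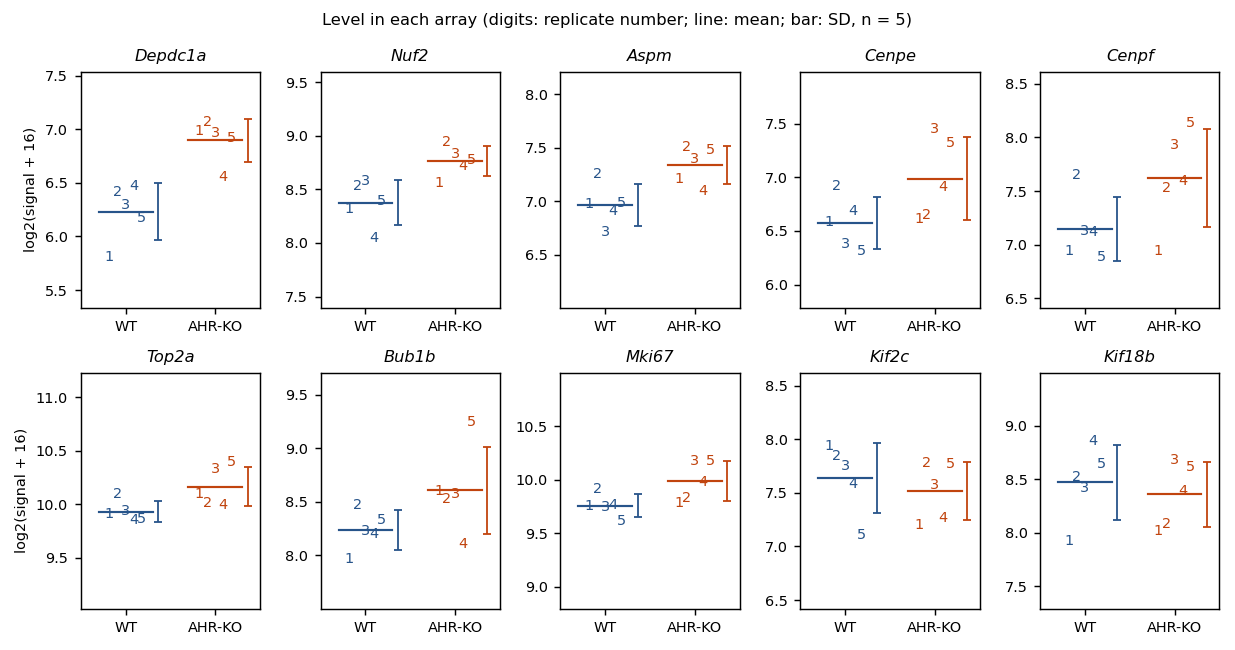
Log2(signal + 16) in each array (digits are replicate numbers) for the 8 genes with the smallest unadjusted p and the 2 with the lowest fold change; horizontal lines are group means and bars the SD of 5 arrays. In Depdc1a the groups do not overlap, and in the other 9 genes they do.

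Among the 6 centromere and kinetochore genes, 5 had a log2 fold change above 0 and the median was 0.29. Nuf2, which with Ndc80 forms the microtubule-binding arm of the Ndc80 complex, had log2 levels of 8.56, 8.94, 8.83, 8.72 and 8.77 in AHR-KO replicates 1 to 5 and 8.32, 8.53, 8.58, 8.05 and 8.39 in WT replicates 1 to 5. AHR-KO replicates 2 to 5 lay above every WT array, and replicate 1 lay among the higher WT arrays. Nuf2 had a log2 fold change of 0.39 (SE 0.13), with an unadjusted limma p of 0.0105 and an exact permutation p of 0.0159. It was 0.39 (p 0.0429) within the 6 arrays of the larger set and 0.39 (p 0.148) within the other 4. Ndc80, the partner of Nuf2 in that arm, had a log2 fold change of -0.02 (SE 0.32), with AHR-KO levels from 6.59 (replicate 1) to 8.53 (replicate 2), the widest spread of the 39 genes. Spc25, which links the same complex to the chromosome, had a log2 fold change of 0.19 (SE 0.24).

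Cenpe, the kinesin that carries chromosomes to the spindle equator, had log2 levels of 6.61, 6.65, 7.45, 6.91 and 7.32 in AHR-KO replicates 1 to 5 and 6.58, 6.92, 6.38, 6.69 and 6.31 in WT replicates 1 to 5. AHR-KO replicates 3 and 5 lay above all WT arrays, and the other AHR-KO arrays lay within the WT range. The log2 fold change was 0.41 (SE 0.19), with an unadjusted limma p of 0.0501 and an exact permutation p of 0.103. With the array set as a block the limma p was 0.0196, and Cenpe had values of 0.57 (p 0.0155) within the 6 arrays and 0.18 (p 0.435) within the 4. Cenpf, a large protein of the outer kinetochore, had log2 levels of 6.94, 7.53, 7.93, 7.59 and 8.13 in AHR-KO replicates 1 to 5 and 6.95, 7.65, 7.13, 7.12 and 6.89 in WT replicates 1 to 5. AHR-KO replicates 3 and 5 were again the high arrays, and AHR-KO replicate 1 was as low as the low WT arrays. Its group means gave a log2 fold change of 0.48 (SE 0.22), with an unadjusted limma p of 0.0505 and an exact permutation p of 0.119, and Cenpf passed the 1.5-fold threshold when AHR-KO replicate 1 (0.65) or WT replicate 2 (0.60) was left out. With the array set as a block the limma p of Cenpf was 0.0144. Cenpf had values of 0.58 (p 0.0153) within the 6 arrays and 0.32 (p 0.291) within the 4. For Cenpe and Cenpf, p-values that use the sets serve as description only, since the sets were drawn from these same data. Cenpa, the histone H3 variant that marks the centromere, had nearly equal means, with a log2 fold change of 0.01 (SE 0.15).

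Among the 4 spindle assembly factors, Aspm, which organizes spindle poles and whose human counterpart is mutated in primary microcephaly, had log2 levels of 7.21, 7.50, 7.40, 7.10 and 7.48 in AHR-KO replicates 1 to 5 and 6.97, 7.25, 6.71, 6.91 and 6.98 in WT replicates 1 to 5. AHR-KO replicates 2, 3 and 5 lay above all WT arrays, and replicates 1 and 4 lay below WT replicate 2 and above the other WT arrays. The difference was 0.37 on the log2 scale (SE 0.13), with an unadjusted limma p of 0.0146 and an exact permutation p of 0.0238. It was 0.37 (p 0.0663) within the 6 arrays and 0.38 (p 0.137) within the 4. Hmmr, a hyaluronan receptor that also acts at spindle poles, had a log2 fold change of 0.31 (SE 0.27). In Hmmr 4 AHR-KO arrays lay above all WT arrays and AHR-KO replicate 2, at 7.06, lay below all of them. Without AHR-KO replicate 2, Hmmr passed the 1.5-fold threshold (0.60, unadjusted limma p 0.00115). Tpx2, the activator of Aurora A on the spindle, had a log2 fold change of 0.19 (SE 0.20), and Nusap1, a microtubule-bundling protein, had one of -0.08 (SE 0.12).

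The 4 checkpoint genes, which hold cells in mitosis until all chromosomes are attached, had log2 fold changes of 0.37 (Bub1b), 0.19 (Bub1), 0.07 (Ttk, the Mps1 kinase) and -0.03 (Mad2l1, the Mad2 inhibitor). Bub1b, which encodes the inhibitor BubR1, had log2 levels of 8.60, 8.53, 8.57, 8.11 and 9.24 in AHR-KO replicates 1 to 5 and 7.96, 8.47, 8.23, 8.20 and 8.33 in WT replicates 1 to 5. AHR-KO replicate 5 was far above all other arrays, AHR-KO replicates 1, 2 and 3 lay just above the highest WT array, and AHR-KO replicate 4 lay among the lower WT arrays. Without AHR-KO replicate 5 the log2 fold change of Bub1b was 0.21. With all arrays the difference had a SE of 0.19, an unadjusted limma p of 0.0709 and an exact permutation p of 0.0873.

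Mki67, the proliferation antigen that coats mitotic chromosomes, had log2 levels of 9.78, 9.83, 10.17, 9.98 and 10.18 in AHR-KO replicates 1 to 5 and 9.76, 9.92, 9.74, 9.76 and 9.62 in WT replicates 1 to 5. AHR-KO replicates 3, 4 and 5 lay above all WT arrays. The log2 fold change was 0.23 (SE 0.12), with an unadjusted limma p of 0.0747 and an exact permutation p of 0.0476. With the array set as a block the limma p was 0.0452. Mki67 had values of 0.30 (p 0.0446) within the 6 arrays and 0.12 (p 0.576) within the 4. The sets were drawn from these same data, so p-values that use them serve as description only. Top2a, the topoisomerase that untangles sister chromatids, had log2 levels of 10.09, 10.01, 10.32, 9.99 and 10.40 in AHR-KO replicates 1 to 5 and 9.91, 10.10, 9.94, 9.85 and 9.86 in WT replicates 1 to 5. AHR-KO replicates 3 and 5 lay above all WT arrays, and the others lay within the WT range. The log2 fold change was 0.23 (SE 0.12), with an unadjusted limma p of 0.0693 and an exact permutation p of 0.0397.

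Of the 5 spindle motors, Kif11, which pushes the spindle poles apart, Kif4, a chromosome-arm kinesin, and Kif15, which can share the task of Kif11, had log2 fold changes of 0.38 (SE 0.21), 0.33 (SE 0.23) and 0.29 (SE 0.23). None of the 3 passed an unadjusted p under 0.05 over the 10 arrays. Without AHR-KO replicate 5 their log2 fold changes were 0.20, 0.17 and 0.15. Within the 6 arrays of the larger set, Kif11 was at 0.58 (limma p 0.037), Kif4 at 0.47 (p 0.0492) and Kif15 at 0.54 (p 0.032). Within the other 4 arrays they were at 0.08, 0.14 and -0.08. The sets were drawn from these same data, so these p-values serve as description only. The 2 remaining motors, both of which depolymerize microtubules or limit their length, had the lowest log2 fold changes of the list. Kif2c had log2 levels of 7.20, 7.78, 7.57, 7.26 and 7.77 in AHR-KO replicates 1 to 5 and 7.93, 7.84, 7.75, 7.58 and 7.10 in WT replicates 1 to 5. The groups overlapped almost completely, with WT replicate 5 lowest and WT replicate 1 highest, and the log2 fold change was -0.13 (SE 0.18; exact permutation p 0.54). Kif18b had log2 levels of 8.01, 8.09, 8.68, 8.39 and 8.62 in AHR-KO replicates 1 to 5 and 7.92, 8.52, 8.41, 8.86 and 8.64 in WT replicates 1 to 5. Here WT replicate 4 was highest and WT replicate 1 lowest, and the log2 fold change was -0.11 (SE 0.19; exact permutation p 0.603).

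The 6 measured cyclins and entry kinases had 5 log2 fold changes above 0 and a median of 0.13. The values were 0.30 (SE 0.26) for Plk1, the Polo kinase of mitotic entry and spindle assembly, 0.20 (SE 0.11) for cyclin A2 (Ccna2), 0.19 (SE 0.18) for Cdk1, 0.07 (SE 0.13) for the centrosomal kinase Nek2, 0.01 (SE 0.16) for cyclin B2 (Ccnb2) and -0.06 (SE 0.19) for Aurora A (Aurka). Plk1 was spread widely over the AHR-KO arrays, from 7.83 in replicate 2 to 9.32 in replicate 5. Within the 6 arrays of the larger set, Plk1 was at 0.64 (unadjusted limma p 0.0319) and Hmmr at 0.66 (p 0.00194). Both were past the 1.5-fold threshold there, in a fit where 331 of all genes were past it. That set was drawn from these same data, so these p-values serve as description only. Within the other 4 arrays the log2 fold changes of Plk1 and Hmmr were -0.22 and -0.21.

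The 3 ubiquitin ligase factors had log2 fold changes of 0.10 (SE 0.12) for Cdc20, the activator that targets cyclin B and securin, -0.04 (SE 0.14) for Cdca3, an adaptor for the destruction of the Wee1 kinase, and -0.10 (SE 0.15) for Ube2c, the ubiquitin-conjugating enzyme of the complex. The chromosomal passenger genes, whose products correct faulty attachments, had values of 0.23 (SE 0.20) for borealin (Cdca8), 0.10 (SE 0.18) for Aurora B (Aurkb) and -0.04 (SE 0.11) for survivin (Birc5). The 5 genes of the central spindle and cytokinesis had values of 0.21 (SE 0.14) for Prc1, which bundles antiparallel microtubules, 0.16 (SE 0.22) for the contractile ring protein anillin (Anln), 0.16 (SE 0.27) for the RhoA activator Ect2, 0.07 (SE 0.15) for Kif20a, the kinesin that brings the passenger complex to the central spindle, and -0.02 (SE 0.22) for Kif23, the motor of the centralspindlin complex. None of these 11 genes passed an unadjusted p under 0.05.

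The 39 genes moved together from array to array. For each array, a mitosis score was taken as the mean over the 39 genes of the log2 deviation from each gene's mean over the 10 arrays. It was -0.10, -0.17, 0.28, -0.06 and 0.45 in AHR-KO replicates 1 to 5 and -0.16, 0.09, -0.06, -0.11 and -0.17 in WT replicates 1 to 5. AHR-KO replicates 3 and 5 lay above all WT arrays and the other 3 AHR-KO arrays lay within the WT range or at its lower edge. The AHR-KO mean was 0.08 (SD 0.27, n = 5) and the WT mean -0.08 (SD 0.10, n = 5). The difference of the means was 0.16. AHR-KO replicate 5 held the highest value of 24 of the 39 genes, AHR-KO replicate 3 of 5 and AHR-KO replicate 2 of 4, and 34 of the 39 had their highest value in an AHR-KO array. The lowest value was also in an AHR-KO array for 15 of the 39. These counts were not taken over all genes, so they have no background beside them. Without AHR-KO replicate 5 the difference in the score was 0.07, the median log2 fold change was 0.06 and 26 of the 39 were above 0. Without AHR-KO replicate 3 these were 0.11, 0.11 and 26.

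**Figure D3:**
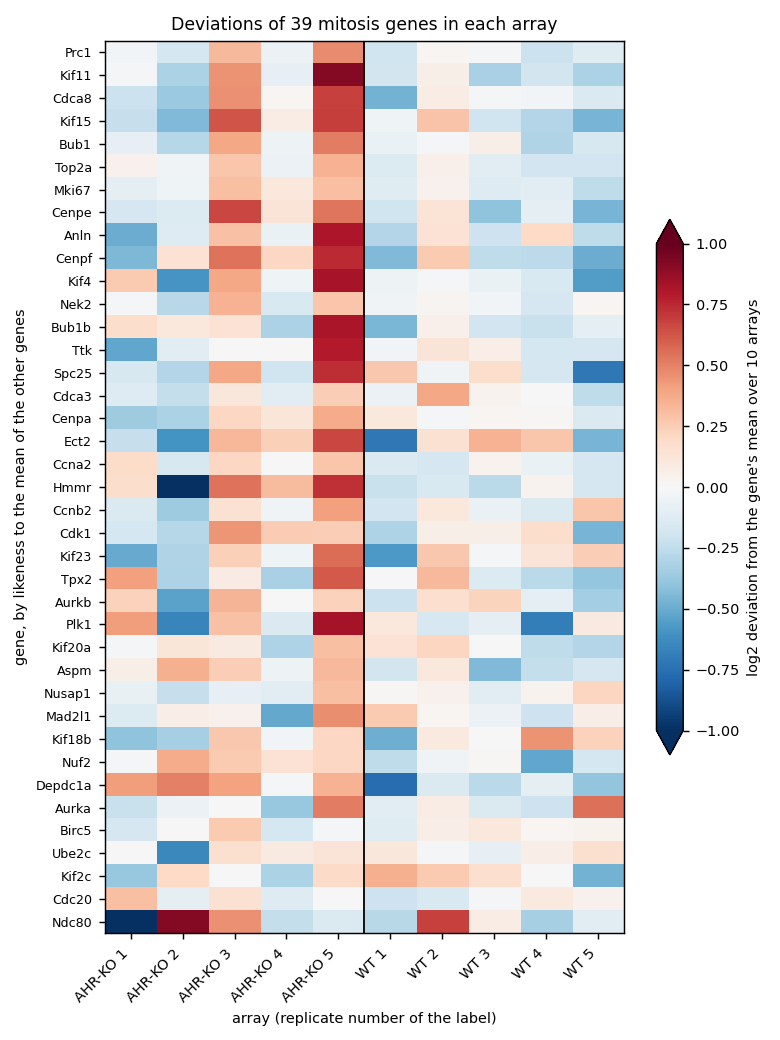
Log2 deviation of each of the 39 genes (rows) from its own mean over the 10 arrays (columns; AHR-KO to the left of the black line, WT to the right), red above and blue below the mean, with genes ordered by how closely they follow the mean of the others. AHR-KO replicate 5, which holds the highest value of 24 genes, and AHR-KO replicate 3 stand out as red columns.

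Over the 741 pairs of the 39 genes, the median Pearson correlation across the 10 arrays was 0.47, and 92% of the pairs were above 0. All pairs share the same arrays and the same preparations. The first component of the 39 genes held 51.5% of their variance, and all 39 loaded on it with the same sign. After the group means were subtracted, the median correlation of a gene with the mean of the other 38 was 0.70, against -0.06 for the correlation of all other genes with the score. Prc1 (0.96), Kif11 (0.95) and Top2a (0.95) followed the others most closely. Depdc1a (0.17), Nuf2 (0.18) and Aspm (0.38), the 3 genes with the smallest p, were among those that followed them least, together with Cdc20 (-0.01), Ndc80 (0.11) and Kif2c (0.36). Depdc1a was high in AHR-KO replicates 1 and 2, where the score was low, as well as in replicates 3 and 5.

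The score was also read in the 2 sets of arrays, and its ranges there overlapped. It ranged from -0.17 to -0.10 in the 4 arrays that stood apart and from -0.11 to 0.45 in the other 6. The difference between AHR-KO and WT was 0.25 within the 6 arrays and 0.03 within the 4. Within the 6 arrays 34 of the 39 genes had a log2 fold change above 0 (52.2% of all genes), and within the 4 arrays 20 did (48.4% of all genes).

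Markers of HSC identity and of other blood cells were set beside the score. The score of 24 HSC identity markers was 0.13, 0.41, -0.23, -0.30 and -0.60 in AHR-KO replicates 1 to 5 and 0.43, 0.005, -0.19, -0.17 and 0.50 in WT replicates 1 to 5. AHR-KO replicate 5, highest in the mitosis score, was the lowest of the 10 arrays in HSC markers, and AHR-KO replicate 3 was also below 0. Of these 24 markers, 22 had a log2 fold change below 0 (median -0.22) and none passed an unadjusted p under 0.05; their summed signal ranged from 6330 to 13500 in AHR-KO and from 9290 to 13600 in WT arrays. The score of 11 genes linked to HSC quiescence ranged from -0.42 to 0.0032 in the 6 arrays and from 0.20 to 0.37 in the 4. The summed signal of 17 neutrophil markers ranged from 4600 to 32700 in AHR-KO and from 7030 to 18800 in WT arrays, and their score was -1.47, -0.92, 0.37, 1.66 and 0.79 in AHR-KO replicates 1 to 5 and -1.02, 0.36, 0.66, -0.05 and -0.38 in WT replicates 1 to 5. No marker of these 3 lists had a signal of 0, and the neutrophil markers Ly6g and Mmp9, the HSC marker Fgd5 and the quiescence-linked gene Cdkn1c were at or below the 95th percentile (31.6) of the olfactory receptor genes. AHR-KO replicate 4, highest in neutrophil markers and also in the 13 T and NK cell markers (score 1.16), had a mitosis score of -0.06. Of 11 mast cell and basophil markers, Mcpt8, Cpa3 and Prss34 were called lower in AHR-KO HSCs at the 1.5-fold threshold, a call that Cpa3 and Prss34 each lost without any of several single arrays (AHR-KO replicate 1 or WT replicate 4, for example), and the summed signal of the list ranged from 824 to 3180 in AHR-KO and from 1960 to 4720 in WT arrays. Of 12 erythroid markers 10 had a log2 fold change above 0 (median 0.48), with summed signals from 2590 to 8830 in AHR-KO and from 2270 to 7620 in WT arrays. None of the erythroid, monocyte, megakaryocyte, B cell or T and NK cell markers passed an unadjusted p under 0.05, but 8 of the 10 B cell, 7 of the 13 T and NK cell and 5 of the 11 mast cell and basophil markers were at or below that background level, where a change may not show. The part of these markers in the mitosis gene differences was not tested.

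**Figure D4:**
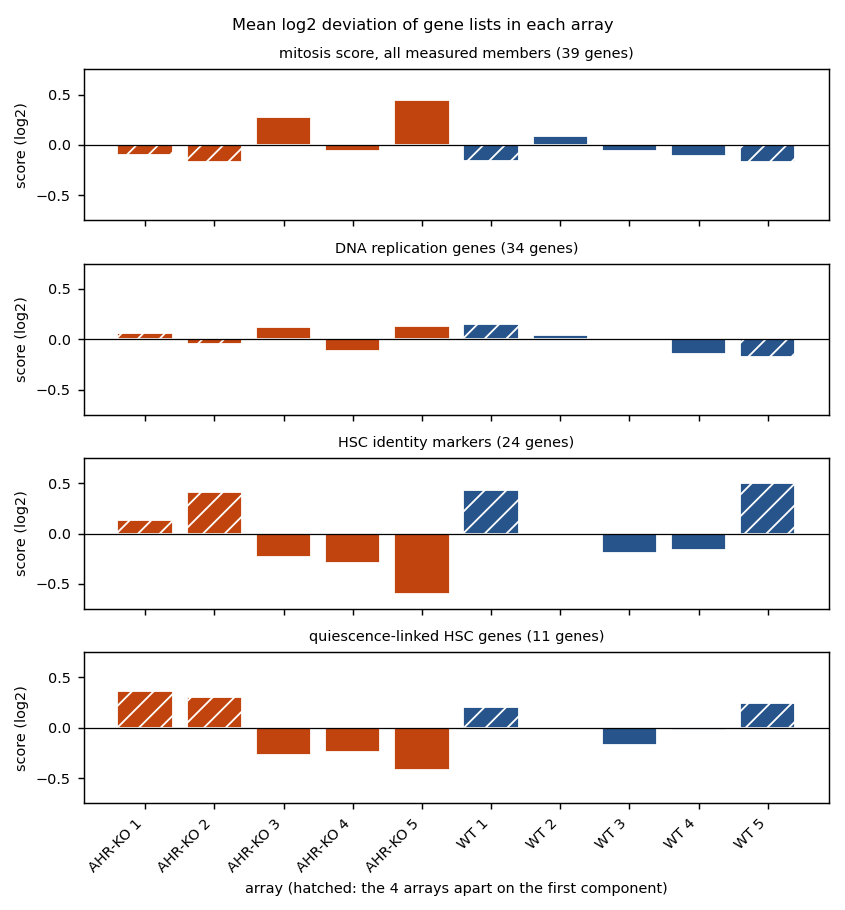
Mean log2 deviation (y axis, log2 units) of 4 gene lists in each array (x axis): the 39 mitosis genes, 34 DNA replication genes, 24 HSC identity markers and 11 quiescence-linked genes; orange bars are AHR-KO, blue bars WT, and hatched bars the 4 arrays apart on the first component. AHR-KO replicates 3 and 5 are highest in the mitosis score (0.28 and 0.45) and below 0 in both HSC panels. AHR-KO replicate 4 and WT replicates 3 and 4, with mitosis scores of -0.06, -0.06 and -0.11, are also below 0 in both.

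By role, the score difference between AHR-KO and WT was 0.24 for centromere and kinetochore genes, 0.23 for Mki67 and Top2a, 0.20 for spindle assembly factors and 0.15 for both checkpoint genes and motors. It was 0.12 for cyclins and entry kinases and for the cytokinesis genes, 0.10 for the chromosomal passenger genes and -0.02 for the ubiquitin ligase factors. Without AHR-KO replicate 5, the differences of the checkpoint genes (0.0067), the motors (0.03) and the cytokinesis genes (-0.0061) were near 0, and those of the cyclins and entry kinases (0.03), the passenger genes (0.04) and the spindle assembly factors (0.0995) were also smaller by over 1.5 times. Those of the kinetochore genes and of Mki67 and Top2a were then 0.17 and 0.18. Differences between the roles were not tested.

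Among the 39 genes, the longer ones had the higher fold changes. The span of the 39 genes on the genome (RefSeq, GRCm38.p6) and their log2 fold change had a Spearman rho of 0.58 across genes, which share arrays and are not independent replicates. The 19 genes longer than the median span of 26.7 kb had a median log2 fold change of 0.29 (16 above 0), and the 20 others one of 0.07 (13 above 0). In 84 genes of 4 other mitosis lists rho was 0.33, and in 11806 other genes with signals above the 95th percentile of the olfactory receptor genes it was 0.09. In AHR-KO replicate 5 the 2360 longest of those genes had a mean deviation of 0.08 and the 2363 shortest one of -0.07, the widest gap among the 10 arrays. The part of gene length in the differences of the mitosis genes was not tested.

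**Figure D5:**
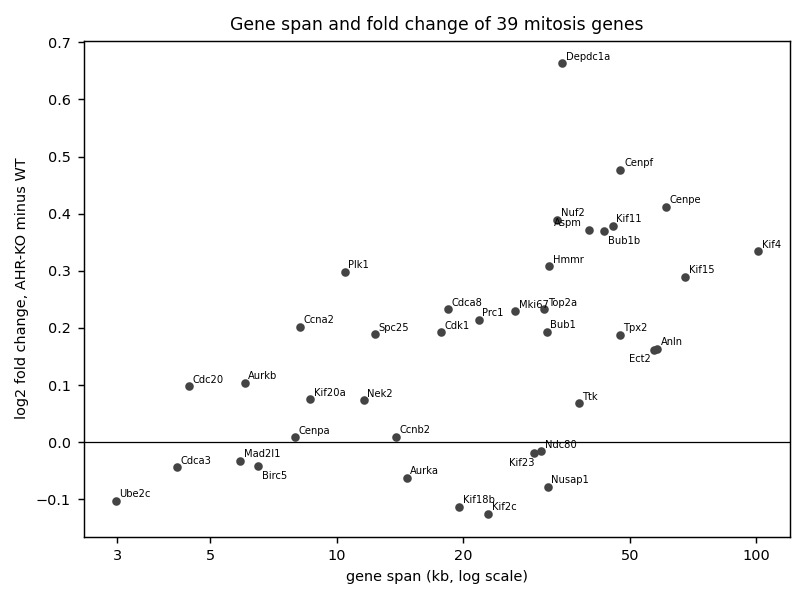
Log2 fold change (y axis, AHR-KO minus WT) of the 39 mitosis genes against gene span in kb (x axis, log scale), 1 point for each gene. Genes longer than 26.7 kb have a median of 0.29 and the others a median of 0.07, with Depdc1a (0.66) highest and Kif2c (-0.13) lowest.

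Other genes of the same processes were described as whole lists. Of 25 other spindle and cytokinesis genes, 22 had a log2 fold change above 0 (median 0.13) and none passed the 1.5-fold threshold. Of 17 condensin, cohesin and separase genes, 13 were above 0 (median 0.09), with none past the threshold. Of 28 other kinetochore and centromere genes, 14 were above 0 (median 0.0003), and Cenpw, a histone-fold protein of the inner kinetochore, was called lower (-0.61, SE 0.22, unadjusted limma p 0.0151). The Cenpw call was lost without WT replicate 1 (-0.43), WT replicate 5 (-0.56), AHR-KO replicate 1 (-0.57) or AHR-KO replicate 5 (-0.56). Of 14 regulators of mitotic entry and exit, 5 were above 0 (median -0.04), and of 20 regulators of mitotic gene transcription 13 were (median 0.06), with none past the threshold in either list. Of 34 DNA replication genes, 22 were above 0 (median 0.05) and none passed the threshold. The groups did not overlap in 2 of them, Gins1 of the replicative helicase (0.45, SE 0.13) and Uhrf1, which guides maintenance methylation (-0.28, SE 0.11). Both were named after their values were seen. Of all 22180 genes, the groups did not overlap in 77 higher and 74 lower ones. Of 11 centriole duplication genes, 8 were above 0 (median 0.10), and Plk4, the kinase that starts centriole duplication, was called higher (0.89, SE 0.18, unadjusted limma p 0.000298, exact permutation p 0.00794). Among the 11 quiescence-linked genes, 3 were above 0 and 8 below (median -0.13). Cdkn1a, the p53 target that encodes the inhibitor p21, was called higher (0.71, SE 0.18, unadjusted limma p 0.00211). At an unadjusted limma p under 0.05 without the fold threshold, 1 gene of this list was lower. The calls of Plk4 (0.77 at the lowest) and Cdkn1a (0.62 at the lowest) held whichever 1 array was left out.

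Outside these 39 genes, the genes above the median level whose deviations from the group means followed the score most closely over the 10 arrays were Pgk1 (r = 0.95), Iws1, Ncapd3, Sp110, Mlkl, Pias4, Capn7, Haus1, Bid and Cacybp (0.92). They were picked from 11051 genes for this likeness. Ncapd3 is a condensin subunit and Haus1 a subunit of the augmin complex of the spindle. The genes that ran most strongly against the score were Tcp11l2 (-0.97), Ldah, Klhl24, Scarna17 and Tm2d2 (-0.94).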

How the data were processed

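RNA of SLAM+ HSCs was amplified and hybridized to Affymetrix Mouse Gene 2.0 ST arrays, 1 per mouse if the study's methods cover these arrays. The authors deposited 1 linear intensity for each of 41345 probe sets and each array, made, per the submitters' processing notes, with Affymetrix Expression Console, its version not given in the sources used here. According to the study's methods, array signals were computed with IterPLIER, background-subtracted and quantile-normalized, but whether that text covers the AHR-KO arrays is not said. A change shared by most genes can be hidden by quantile normalization. Precision is limited by the number of arrays.

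Each deposited intensity was converted to log2(signal + 16). The platform annotation gave 1 symbol to 23521 probe sets, several to 1820 and none to 16004, and genes were named only from those with 1. Where a gene had several probe sets (1082 genes), that with the highest mean was used, giving 22180 genes.

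Groups followed the genotype labels. Differences were fitted in R 4.3.3 by limma 3.58.1, p-values were adjusted by Benjamini-Hochberg over all 22180 genes, and genes were counted at 1.5-fold with a p under 0.05, the limits that the study's methods name, taken here with the p unadjusted because the adjustment is not specified, with two-sided exact permutation tests over the 10 arrays for genes given in full. The scripts were tested on simulated data. The genes, lists, roles and the 2 sets of arrays were chosen with earlier results of these data known. All 39 measured genes were named with their fold change. Values in every array were given for genes past the threshold or without overlap, for those with the smallest p up to 8 genes, and for the 2 with the lowest fold change. From the other lists genes past the threshold were named, at most 4 a list; Gins1 and Uhrf1 were named after their values were seen. The 10 genes most like the score and the 5 most against it were named as a description. Alternatives were pseudocounts of 1 and 64, quantile normalization again, subtraction of the 5th percentile, a filter at the median level, the mean of probe sets, a replicate block, an intensity trend with robust spread, array weights, the array set as a block, each array set alone, the methods' t-test, folds of linear means and leaving out each array. Promoter sequences and gene spans are from RefSeq (GRCm38.p6); 4 of the 40 genes (Ccna2, Kif20a, Tpx2 and Aurkb) have no window here.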

Additional observations from a re-analysis of the deposited data

Results flagged for a closer look

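Each group of 5 arrays was examined for 1 array far from the others, for the 39 genes, the mitosis score and the 9 role scores (98 groups), and 3 groups held such an array; chance alone gives about 1 in 20. Ube2c in AHR-KO replicate 2 lay at 10.22, below the others of its group, the nearest of which was 10.87. Kif4 in WT replicate 5 lay at 6.83, with the nearest WT array at 7.23. Nusap1 in AHR-KO replicate 5 lay at 9.92, with the nearest AHR-KO array at 9.54.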

How the results depend on the processing

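The direction of 20 of the 39 genes did not change in any of the alternatives, and that of the other 19 did in at least 1. Depdc1a stayed higher in AHR-KO HSCs in all of them, with a log2 fold change from 0.42 within the 6 arrays of the larger set to 1.03 within the other 4. It fell below the 1.5-fold threshold, leaving 0 genes past it, with a pseudocount of 64 (0.44), with array weights (0.58) and without WT replicate 1 (0.56), and within the 6 arrays 2 genes (Plk1 and Hmmr) passed it in place of Depdc1a. Leaving out 1 array gave from 0 to 2 genes past the threshold. Cenpf joined Depdc1a when AHR-KO replicate 1 or WT replicate 2 was omitted, and Hmmr did when AHR-KO replicate 2 was. Of all genes, 175, 195 and 230 were past it in these fits, in that order, against 116 over all arrays. Of the 39 genes, 3 were higher at an unadjusted p under 0.05 over all arrays and 6 with the array set as a block. Within the 6 and the 4 arrays, 10 and 1 were. Of all genes, 1.81%, 2.62%, 4.56% and 1.98% were higher in these fits, in that order. The count was 9 with array weights, 6 with a pseudocount of 64, 5 with the methods' t-test and 3 to 10 with 1 array left out. For these settings the share of all genes was not taken, so their counts have no background beside them. The count of genes above 0 ranged from 20 to 34 over all alternatives. The labels do not say whether replicate numbers pair the arrays, and this was not tested. Correlations of the deviations of same-numbered arrays were 0.352, -0.198, 0.154, 0.214 and -0.123. The replicate block left 1 gene past the threshold, Depdc1a (limma p 0.00355), with 153 of all genes past it in place of 116. Over all genes that number was 574 with a pseudocount of 1, 16 with 64 and 75 with the methods' t-test. It was 429 with folds of linear means, 133 with array weights and 74 above the median level. Within the 6 and the 4 arrays it was 331 and 845, and leaving out 1 array it ranged from 99 to 230. The following log2 fold changes changed sign. With array weights, Aurka was 0.0184, Ube2c 0.0367, Birc5 0.0026, Kif18b 0.0042 and Kif23 0.0842. Within the 6 arrays, Aurka was 0.1365, Mad2l1 0.0809, Ube2c 0.1334, Nusap1 0.0492 and Kif23 0.1266. Within the 4 arrays, Ccnb2 was -0.294, Plk1 -0.2193, Nek2 -0.136, Bub1 -0.0701, Ttk -0.2188, Cenpa -0.3186, Ndc80 0.1362, Spc25 -0.0045, Kif15 -0.0797, Hmmr -0.213 and Anln -0.0396. Ndc80 was 0.0047 with a pseudocount of 64 and 0.0863 from linear means, where Kif23 was 0.0008. Leaving out 1 array, the values ranged from -0.0916 to 0.0998 for Ccnb2, -0.1984 to 0.0675 for Aurka, -0.0044 to 0.1519 for Nek2, -0.1216 to 0.2067 for Ttk, -0.1524 to 0.0919 for Mad2l1, -0.1551 to 0.0449 for Ube2c, -0.1132 to 0.0482 for Cdca3, -0.0825 to 0.0989 for Cenpa, -0.2466 to 0.2399 for Ndc80, -0.1642 to 0.1037 for Kif23 and -0.0172 to 0.3078 for Anln. In the other lists, leaving out 1 array gave 5 to 9 of the 14 entry and exit regulators and 5 to 10 of the 11 centriole duplication genes above 0. The causes of these changes were not tested. With 5 arrays a group, the 95% intervals were wider than most of these differences.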
